A study of Mus musculus with 172 samples.

Results

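Control inner cell mass (ICM) cells of embryonic day (E) 3.5 were compared with control epiblast (EPI) cells of E4.5 in mouse blastocysts. The members were chosen by their labels. They were all wild-type (WT) and heterozygous (HET) ICM cells at E3.5, 58 cells of 7 embryos, and all WT and HET cells labelled EPI at E4.5, 37 cells of 6 embryos, together 95 of the 172 cells and 13 of the 19 embryos of the series. The series profiled single cells of blastocysts from intercrosses of Pou5f1 heterozygous mice to ask what OCT4, the transcription factor that Pou5f1 encodes, does in the ICM, and the 48 cells of mutant (MUT) embryos were left out here. ICMs were freed of trophectoderm (TE) by immunosurgery, in which antibody and complement lyse the outer cells, and each picked cell became 1 Smart-seq2 library.

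The E3.5 group held 5 WT embryos with 42 cells and 2 HET embryos with 16 cells. The E4.5 EPI group held 2 WT embryos with 15 cells and 4 HET embryos with 22 cells. HET embryos carry 1 null allele of Pou5f1, and the animals were of mixed genetic background. The same 6 E4.5 embryos gave 29 cells labelled primitive endoderm (PrE), which were used as a second lineage from the same plate and stage. The authors assigned the labels EPI and PrE from these same transcriptomes, so differences between EPI and PrE describe that assignment and were used here only to sort genes. All E3.5 cells were on 1 plate and sequencing lane and all E4.5 cells on the other, so stage and plate cannot be told apart in any change from ICM to EPI. The value in PrE, from the plate of the EPI cells, is therefore given beside the main changes.

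The ICM is the inner part of the blastocyst that gives rise to both the epiblast, founder of the fetus, and the PrE, founder of the yolk sac endoderm. Between the mid and the late blastocyst these lineages separate. Transcription factors such as NANOG and OCT4 mark the epiblast, GATA6 and later GATA4 and SOX17 mark the PrE, and FGF4 from epiblast cells signals to PrE precursors. The epiblast of the implanting embryo is the source of naive pluripotent stem cells and later passes into a formative state in which DNA methyltransferases and post-implantation regulators are present.

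The counts of all cells of 1 embryo were added up, so that the embryo was the replicate, and levels are given as CPM, which scale each sum to the same total. CPM gives the share of a gene in the counted reads and not the amount of RNA in a cell, and levels were not compared between genes because the values are not per length. Fold changes come from edgeR's quasi-likelihood test on the sums, and a gene was called at a Benjamini-Hochberg adjusted p under 0.05. Values with ± are means and SD over 7 ICM, 6 EPI or 6 PrE sums. The ICM sums held 8539537 to 17453036 counts and the EPI sums 3912090 to 15001181 counts. ICM cells held more detected genes, 9309 ± 425 (SD, n = 7 embryos) per cell against 6831 ± 281 (n = 6) in EPI, and after thinning each cell to 500000 counts the means were still 8663 and 6336. The share of read pairs that mapped to several places was 38.8% ± 0.846 in ICM and 25.4% ± 3.16 in EPI. Each of these differences gave an exact two-sided permutation p of 0.0005828, the smallest that 7 embryos against 6 allow. The PrE cells of the E4.5 plate had 7079 genes per cell and 20.6% of multiply mapped pairs. The part of these differences in the changes described here was not tested.

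Pou5f1, the gene targeted in the series, was present in every control embryo. Its level was between 209.6 and 452 CPM in the 7 ICM sums, with a median of 278 CPM, and between 72.5 and 257 CPM in the 6 EPI sums, with a median of 134 CPM. The groups overlapped only through WT EPI embryo 5. The change was a log2 fold change of -1.05 (SE 0.27, edgeR adjusted p = 0.00786). The genotypes were not balanced over the stages, and among WT embryos alone the log2 fold change was -0.80 (adjusted p = 0.126). With all aligned read pairs as library size it was -0.68 (adjusted p = 0.0617).

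The 5 genes that mark the epiblast in this comparison moved in different directions. Lefty2 (chromosome 1, 180893108 to 180899103 of GRCm38), an extracellular inhibitor of Nodal, had 0 counts in all 7 ICM sums and in 0 of 58 ICM cells, where 0 of 58 still allows up to 6.16% of such libraries with a count (exact 95% interval, counting error only, with cells of 1 embryo not independent, and no limit on cells that express the gene). In EPI it was between 67.9 and 426 CPM with a median of 304 CPM, at least 8821-fold higher against a floor of 3 counts over the ICM group, and it was detected in 33 of 37 EPI cells. The lowest EPI value was that of WT embryo 5, whose PrE cells held 88.3 CPM. In the other PrE sums Lefty2 was between 0 and 16.6 CPM. Only uniquely mapped pairs were counted, so reads shared with its near-identical relative Lefty1 are not in these values.

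Tdgf1 (chromosome 9, 110939603 to 110946158), a co-receptor of Nodal, was between 30.6 and 359 CPM in ICM with a median of 106 CPM. It was between 895 and 2515 CPM in EPI with a median of 1930 CPM, a log2 fold change of 3.67 (SE 0.49, adjusted p = 4.98e-05). Its PrE sums were at or under 0.31 CPM except for embryo 6 with 47.7 CPM. Tdgf1 had a count in 43 of 58 ICM cells and in 37 of 37 EPI cells. Utf1 (chromosome 7, 139943789 to 139945112), a chromatin-bound factor of pluripotent cells, was between 21.7 and 123 CPM in ICM and between 247 and 704 CPM in EPI, with medians of 50 and 495 CPM and a log2 fold change of 3.12 (SE 0.35, adjusted p = 1.18e-05). PrE held 150.4 to 297 CPM of Utf1, above every ICM sum.

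Nanog (chromosome 6, 122707489 to 122714633) was lower in EPI than in ICM. Its ICM sums were between 434 and 807 CPM with a median of 684 CPM, and its EPI sums between 140 and 415 CPM with a median of 264 CPM. The ranges were separate, with a log2 fold change of -1.20 (SE 0.22, adjusted p = 0.000613). Nanog still had a count in 37 of 37 EPI cells, while its PrE sums lay between 0 and 5.9 CPM. Tfcp2l1 (chromosome 1, 118627945 to 118685168), a transcription factor downstream of LIF and STAT3 signalling, was between 591 and 873 CPM in ICM and between 111 and 643 CPM in EPI, with medians of 771 and 292 CPM and a log2 fold change of -1.21 (SE 0.31, adjusted p = 0.00715). Here HET EPI embryo 1, at 643 CPM, lay within the ICM range. The Nanog and Tfcp2l1 calls were lost in a fit of ICM, EPI and PrE together, at adjusted p of 0.142 and 0.0796. With EPI and PrE cells added together, which does not use the assignment to lineages, the 5 markers kept their directions. The log2 fold changes were -2.05 for Nanog, 2.64 for Utf1, 2.82 for Tdgf1, -2.02 for Tfcp2l1 and 10.40 for Lefty2. The Lefty2 value depends on the prior count. PrE cells enter that fit, and Nanog was at most 5.9 CPM in PrE. The larger falls of Nanog and Tfcp2l1 there say nothing about EPI alone.

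**Figure D1:**
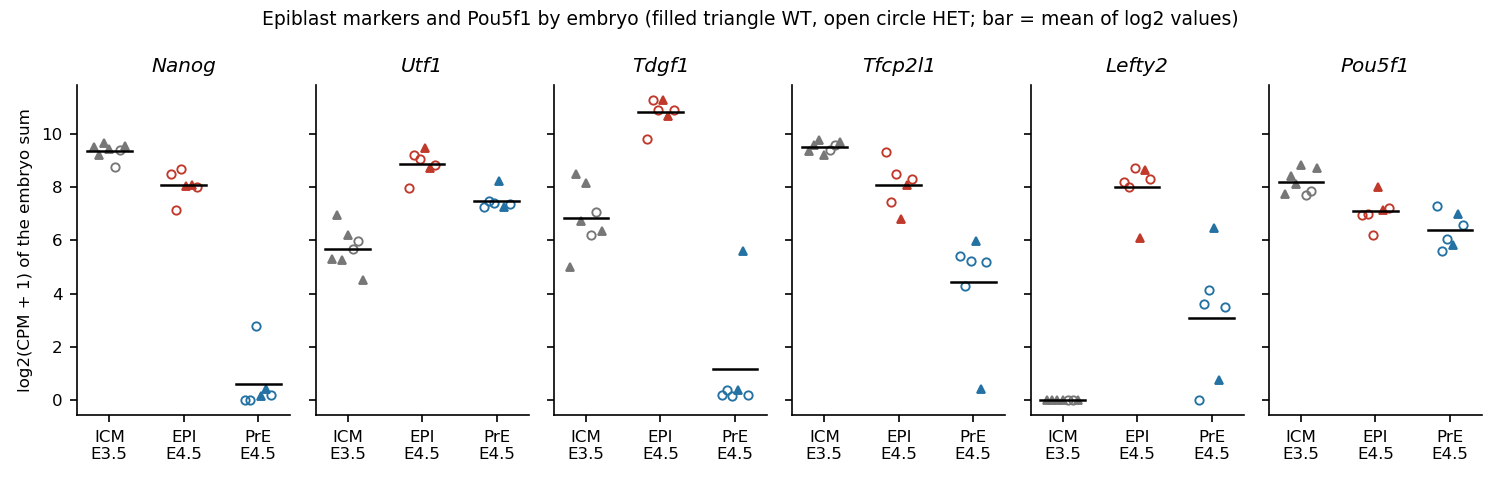
Levels of Nanog, Utf1, Tdgf1, Tfcp2l1, Lefty2 and Pou5f1 as log2(CPM + 1), 1 point per embryo sum of E3.5 ICM (n = 7), E4.5 EPI (n = 6) and E4.5 PrE (n = 6); filled triangles are WT, open circles HET, and bars are means of the log2 values. All ICM points of Lefty2 sit at 0, the EPI points of Tdgf1 and Utf1 lie above every ICM point, and the EPI points of Nanog lie below every ICM point and above every PrE point.

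Across the transcriptome, 11142 genes passed the filter on low counts and 3557 of them, 31.9%, were called between ICM and EPI. Of these, 1725 (15.5% of the genes tested) were higher in EPI and 1832 (16.4%) were lower. The ranges of the groups were separate for 2185 called or uncalled genes, 19.6% of those tested. Higher genes made up 48.5% of the calls. That split depended on the scaling, since it was 68.35% with all aligned read pairs as library size, which moved the median log2 fold change of the same genes to 0.31, and 22.2% when cells were weighted equally in limma-trend, which moved it to -0.63. The median was -0.06 in the edgeR fit. ICM against PrE gave calls for 3420 of 10800 genes or 31.7%, with 1596 (14.8%) higher and 1824 (16.9%) lower in PrE. EPI against PrE of the same embryos gave 958 of 9762 genes or 9.81%, with 450 (4.61%) higher and 508 (5.2%) lower in EPI.

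These 3 comparisons sorted the called genes. A gene was put down as epiblast-specific when EPI and PrE also differed in the direction of its change from ICM to EPI and the change from ICM to PrE was not called in that direction. It was put down as shared when ICM to PrE was called in the same direction and EPI and PrE were not called as different. Of the 1725 higher genes, 235 were epiblast-specific, 639 shared, 41 higher in both lineages but more so in EPI, 63 higher in both but more so in PrE, and 747 unresolved. Of the 1832 lower genes, 161 were epiblast-specific, 1013 shared, 15 and 36 in both with a larger change in EPI and in PrE, and 607 unresolved. Shared genes were 37.0% of the higher genes and 55.3% of the lower ones, a description that rests on the same ICM embryos in both comparisons. Of the 1354 unresolved genes, 225 were too low to be tested between EPI and PrE.

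**Figure D2:**
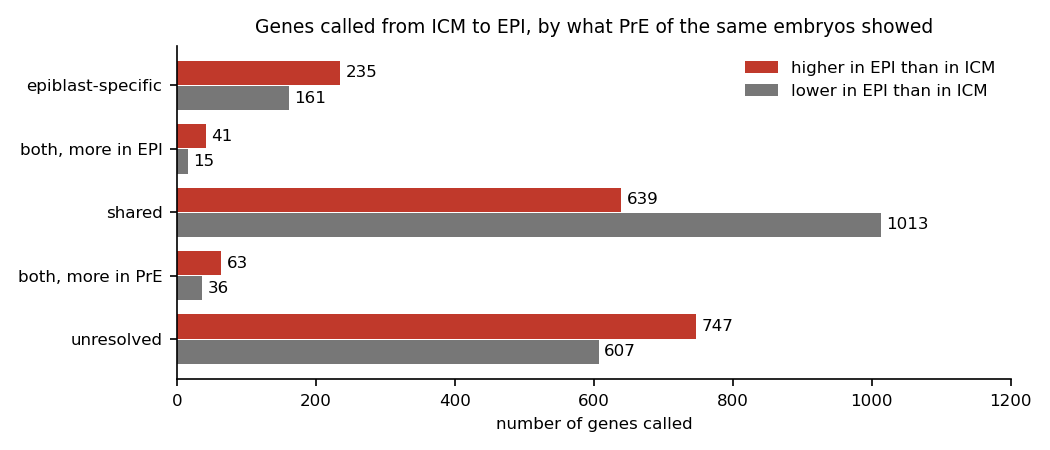
Number of genes called from E3.5 ICM to E4.5 EPI (edgeR, adjusted p under 0.05), by class on the y axis, with genes higher in EPI in red and lower in grey. The longest bars are the 1013 shared lower genes and, among higher genes, the 747 unresolved and 639 shared ones, against 235 higher and 161 lower epiblast-specific genes.

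The largest changes were of an on/off kind. A gene was put down as switched on when it was called with a fold change of 8 or more, its groups did not overlap, and its mean was 20 CPM or more in EPI and under 1 CPM in ICM, and as switched off in the mirror case. By this rule 54 genes (0.485% of those tested) were switched on and 58 (0.521%) were switched off. The filter keeps a gene only if it is present in enough sums, so such genes entered the test through the group in which they were high. Of the genes switched on, 27 were epiblast-specific, 13 shared, 1 higher in both with more in PrE, and 13 unresolved. Of the genes switched off, 6 were epiblast-specific, 40 shared and 12 unresolved. Genes switched on had a count in a median of 70.3% of EPI cells and 5.17% of ICM cells, and 8 of them had 0 counts in ICM. Genes switched off had a count in a median of 93.1% of ICM cells and 2.70% of EPI cells, and 22 of them had 0 counts in EPI. In PrE, 11 of the genes switched on and 16 of those switched off also had 0 counts.

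Among epiblast-specific genes that rose, the 8 with the largest fold changes were Trh, Lefty2, Manba, Igfbp2, Enox1, Ifitm1, Aire and Gjc1, all switched on. None of the 8 reached the filter between ICM and PrE, where both groups were low, so their class rests on the difference between EPI and PrE. Trh (chromosome 6, 92242061 to 92244650), which encodes the precursor of thyrotropin-releasing hormone, was between 0 and 1.06 CPM in ICM and between 205 and 1480 CPM in EPI with a median of 842 CPM. The log2 fold change was 11.13 (SE 0.75, adjusted p = 1.2e-07). It had a count in 34 of 37 EPI cells and 2 of 58 ICM cells, and its PrE sums were between 0 and 9.36 CPM.

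Igfbp2, a binding protein of insulin-like growth factors, was between 0 and 2.32 CPM in ICM, between 97.2 and 391.8 CPM in EPI and at 0 counts in PrE (8.995, SE 0.90, adjusted p = 3.84e-06). Manba, the lysosomal beta-mannosidase, had 0 counts in ICM and 148 to 259 CPM in EPI, at least 7147-fold higher, with 0.102 to 12.3 CPM in PrE. Enox1 was between 38.3 and 142 CPM in EPI and at most 0.361 CPM in ICM, with 0 counts in PrE. These genes were higher than in ICM in the EPI sums of all 6 embryos, both WT and HET. Groups that do not overlap were a condition of naming them, so this is not a separate result.

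Ifitm1, an interferon-inducible membrane protein, had 1 count in ICM and 14.5 to 140.5 CPM in EPI, a ratio of shares of 3962 (exact 95% interval 710.4 to 156530). Gjc1, a gap junction protein, was between 18.9 and 78.7 CPM in EPI and at 0 counts in 6 of 7 ICM sums. Aire, a transcriptional regulator best known from the thymus, had 0 counts in ICM and PrE and 24.8 to 90.3 CPM in EPI, at least 1486-fold higher. In the GENCODE annotation, 67 exon bases of Aire overlap Dnmt3l on the opposite strand, and Dnmt3l rose from 9.66 to 366 CPM. The library type does not keep the strand, so reads of the shared bases cannot be told apart. PrE held 199.8 CPM of Dnmt3l and 0 counts of Aire.

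Genes that rose in both lineages were led by Car2, Epha2, Tceal9, Ldha, Hspb1, Lefty1, Bex3 and Fam25c. Car2, a cytosolic carbonic anhydrase, was between 0 and 1.8 CPM in ICM, between 145 and 332 CPM in EPI and between 248 and 547 CPM in PrE. The log2 fold change to EPI was 8.996 (SE 0.81, adjusted p = 1.38e-06), and Car2 had a count in 37 of 37 EPI cells and 2 of 58 ICM cells. Hspb1, a small heat shock protein, was between 1.4 and 13.2 CPM in ICM, between 341 and 926 CPM in EPI and between 391 and 853 CPM in PrE (log2 fold change to EPI 6.71, adjusted p = 2.87e-07). EPI and PrE sums of both genes overlapped.

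Epha2, an ephrin receptor, was at most 0.249 CPM in ICM, between 11.2 and 75.9 CPM in EPI and between 12.2 and 80.3 CPM in PrE. Bex3 was at most 9.6 CPM in ICM and between 74.7 and 407 CPM in EPI, and Fam25c at most 6.4 CPM and between 107 and 203 CPM. Tceal9 was at most 5.23 CPM in ICM and between 38.4 and 211 CPM in EPI. Lefty1, the near-identical relative of Lefty2, varied widely between embryos. It was at most 1.12 CPM in ICM, between 2.79 and 118 CPM in EPI and between 0.305 and 336 CPM in PrE. Its log2 fold change was 6.58 (adjusted p = 0.000432) and 2.82 (adjusted p = 0.173) among WT embryos alone. Reads that Lefty1 and Lefty2 share are not in the values of either gene.

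Epiblast-specific losses were led by Timd2, Eva1a, Msl3, Gata6, Rab3il1, Nrg1, Amot and Plod2, all of which were called higher in PrE than in EPI. Timd2, a cell surface receptor that takes up ferritin, was between 309.7 and 1509 CPM in the ICM sums with a median of 746 CPM. It had 4 counts in all EPI cells together and was between 204 and 774 CPM in PrE. The log2 fold change to EPI was -11.80 (SE 0.51, adjusted p = 1.63e-09), and to PrE it was -0.92 (adjusted p = 0.0553). A count of Timd2 was found in 58 of 58 ICM cells, 3 of 37 EPI cells and 29 of 29 PrE cells.

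Gata6, a transcription factor required for PrE, was between 25.5 and 211 CPM in ICM, at most 3.56 CPM in EPI and between 135 and 239 CPM in PrE. It had a count in 58 of 58 ICM cells, 2 of 37 EPI cells and 29 of 29 PrE cells. Eva1a, an endosomal and lysosomal membrane protein, went from 63.1 to 118 CPM in ICM to 1 count in EPI, a ratio of shares of 4710 (exact 95% interval 845 to 186060), with 90.2 to 191 CPM in PrE. Rab3il1, Nrg1, Amot and Plod2 fell in EPI and rose in PrE relative to ICM. Nrg1, a ligand of ERBB receptors, was between 14.6 and 50.5 CPM in ICM, at most 4 CPM in EPI and between 101 and 272 CPM in PrE. Amot, an angiomotin of the Hippo pathway, was between 14.5 and 58.7 CPM in ICM, at most 6.66 CPM in EPI and between 36.6 and 204 CPM in PrE. Because EPI cells were picked by their transcriptomes, losses of PrE genes in EPI partly restate that choice. With EPI and PrE cells added together, Timd2 and Msl3 had log2 fold changes of -2.10 and -2.96, the calls of Eva1a and Gata6 were lost (adjusted p of 0.214 and 0.41), and Rab3il1, Nrg1, Amot and Plod2 turned to positive values of 0.98, 1.65, 0.52 and 0.38 on the log2 scale.

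Shared losses were led by Alppl2, Pramel5, Pramel4, Gulo, Smpdl3a, Tat, BC053393 and Tktl1, and these were nearly complete. None of the 8 reached the filter between EPI and PrE, where both lineages were low. Alppl2, an alkaline phosphatase, was between 751 and 1934 CPM in ICM with a median of 1476 CPM, at 0 counts in 5 of 6 EPI sums and at 3.5 CPM in HET embryo 7, where 1 cell carried all its counts. Its log2 fold change was -10.73 (SE 0.95, adjusted p = 1.16e-06) to EPI and -10.84 (adjusted p = 1.12e-08) to PrE. Gulo, the last enzyme of vitamin C synthesis, was between 134 and 337 CPM in ICM and had 1 count in EPI, a ratio of shares of 11131 (exact 95% interval 1998 to 439700). It had a count in 58 of 58 ICM cells, 1 of 37 EPI cells and 1 of 29 PrE cells.

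Pramel5, Smpdl3a, Tat and Tktl1 had 0 counts in EPI and were at least 4870-fold, 3154-fold, 3004-fold and 1708-fold lower than in ICM. Tat is the tyrosine aminotransferase of amino acid catabolism, Smpdl3a is a phosphodiesterase related to acid sphingomyelinase, and Tktl1 is a relative of transketolase. Pramel4, of the same family as Pramel5, had 1 count in EPI against 116 to 315 CPM in ICM, and BC053393 had 4 counts against 35.3 to 248 CPM. Members of the Pramel family are close copies of each other, so how their reads were divided among the copies is uncertain.

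**Figure D3:**
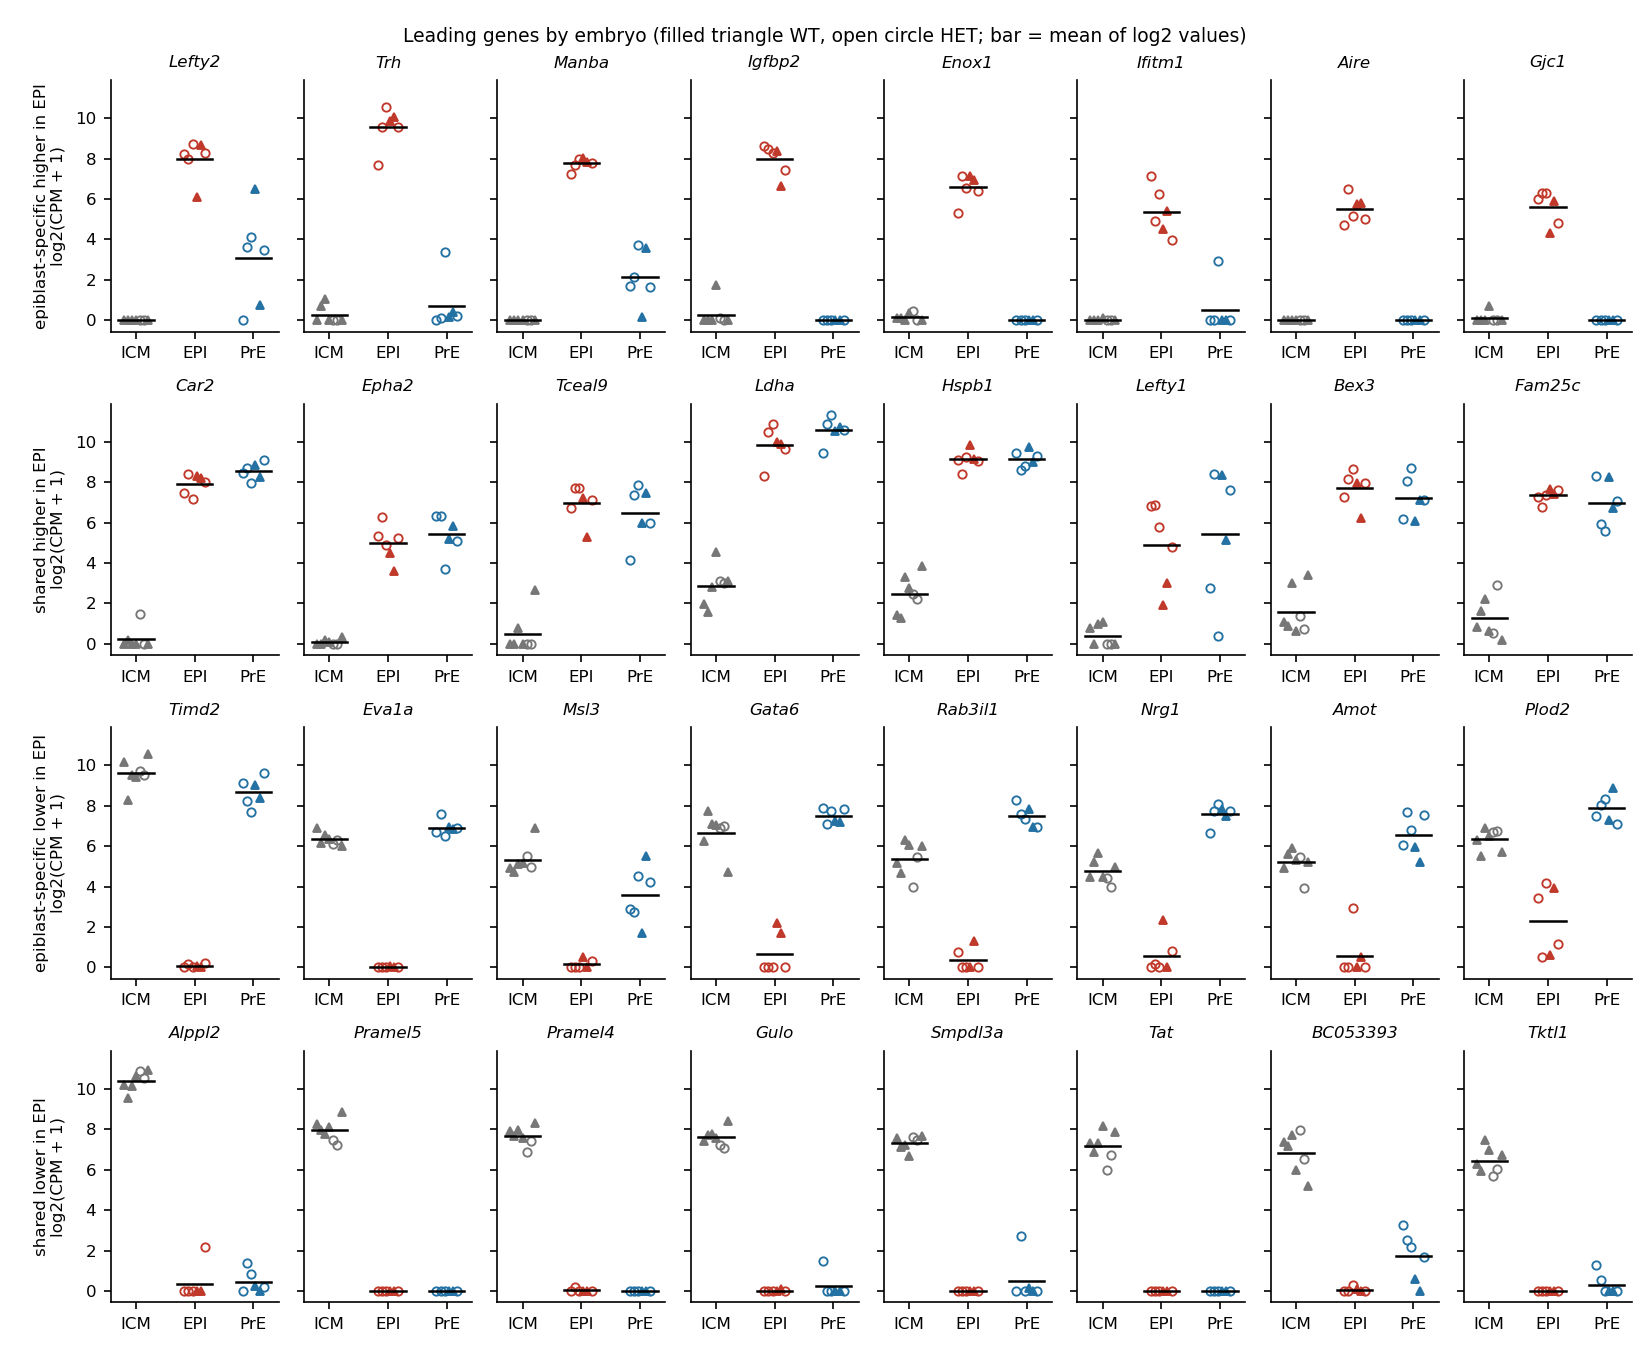
Levels of the 8 leading genes of each class and direction as log2(CPM + 1), 1 point per embryo sum of ICM (n = 7), EPI (n = 6) and PrE (n = 6); filled triangles are WT, open circles HET, and bars are means of the log2 values. The panels show genes that rose in EPI with low PrE values, that rose in both lineages, that fell in EPI with PrE higher than EPI, and that fell in both lineages.

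Of the 30 naive pluripotency genes, all of which were tested, 11 rose (36.7%), 8 fell (26.7%) and 11 did not pass the test from ICM to EPI, beside 15.5% and 16.4% of all genes tested. Their median log2 fold change was 0.78, against -0.06 over all genes tested. To PrE, 28 were tested, 5 rose and 16 fell, with a median of -1.48. The list is broad and also holds Utf1, a factor of pluripotent cells, and the Nodal pathway genes Tdgf1 and Gdf3. Its counts and medians therefore do not describe naive factors alone. The sum of the list was between 8850 and 11680 CPM in ICM and between 11180 and 14240 CPM in EPI, but this rise was that of Dppa5a. Without Dppa5a the median sum was 7521 CPM in ICM and 6305 CPM in EPI, with overlapping ranges. The ones that fell included Dppa3 (Stella), which protects maternal methylation in the zygote, and Dppa2. Dppa3 was between 1220 and 2072 CPM in ICM and between 153 and 408 CPM in EPI (-2.47, SE 0.21, adjusted p = 9.65e-07), and Dppa2 between 1190 and 2475 CPM and between 147 and 416 CPM (-2.55, SE 0.26, adjusted p = 4.4e-06). The ICM and EPI ranges of both genes were far apart.

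In what follows the log2 fold change stands in parentheses after the levels. Fbxo15 fell from 1029 ± 238 to 218 ± 126 CPM (-2.21), and Nr5a2, an orphan nuclear receptor, from 48.3 ± 16.4 to 3.87 ± 4.16 CPM (-3.57). Tbx3 fell from 161 ± 29.2 to 53.8 ± 40.7 CPM (-1.55). Those that rose included Dppa5a, from 2361 ± 145 to 5802 ± 643 CPM (1.33) with an SE of 0.09 and an adjusted p of 1.18e-07, and Zfp42 (Rex1), from 282 ± 21.1 to 529.6 ± 226 CPM (0.94). Dppa5a and Zfp42 were epiblast-specific, with 2895 ± 812 CPM and 138 ± 29.4 CPM in PrE.

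Tdh, threonine dehydrogenase, rose from 113 ± 45.4 to 404 ± 96.6 CPM (1.87) and Sall4 from 186 ± 33.4 to 325 ± 86.5 CPM (0.83). Gdf3, a TGF-beta family ligand, rose from 86.4 ± 22.3 to 222 ± 67.3 CPM (1.39). Tcl1, a cofactor of AKT kinases, rose from 11.3 ± 7.66 to 183 ± 91.4 CPM (4.03) and was at 263 ± 100.1 CPM in PrE. Lin28a, which binds let-7 precursors, rose from 1.12 ± 1.37 to 36.2 ± 27.8 CPM (4.84) and was at 72.2 ± 27.2 CPM in PrE. L1td1 rose from 44.6 ± 16.2 to 102 ± 54.6 CPM (1.22). Nr0b1 (Dax1) had 0 counts in ICM and 3.84 to 33.1 CPM in EPI, at least 562-fold higher. So among genes commonly listed together the changes ran from loss to new appearance.

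Several core genes did not pass the test. Sox2 was at 28.4 ± 7.83 and 32.1 ± 8.54 CPM in ICM and EPI (0.21, SE 0.28, adjusted p = 0.615). Klf2 was at 62.7 ± 19.9 and 59.7 ± 12.8 CPM (-0.04, SE 0.26, adjusted p = 0.925), and Klf4 at 40.4 ± 15 and 39.8 ± 16.5 CPM (0.02, SE 0.34, adjusted p = 0.976). Esrrb was at 30.9 ± 9.15 and 52.2 ± 18.8 CPM (0.79, adjusted p = 0.0532), and Fgf4 at 43.4 ± 22.3 and 72.5 ± 38.2 CPM (0.78, adjusted p = 0.174). In PrE, Fgf4 and Sox15 had 0 counts and Sox2 was at 0.978 CPM, and these genes were called lower in PrE than in ICM while no change was called in EPI. Klf5 was at 146 ± 38.1 CPM in ICM, 123 ± 52.7 CPM in EPI and 306 ± 55.8 CPM in PrE, and the rise to PrE was called (adjusted p = 0.000494). Dppa4, Prdm14, Gbx2 and Sox15 did not pass the test from ICM to EPI either, with log2 fold changes of 0.49, 1.07, 1.80 and -0.29.

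**Figure D4:**
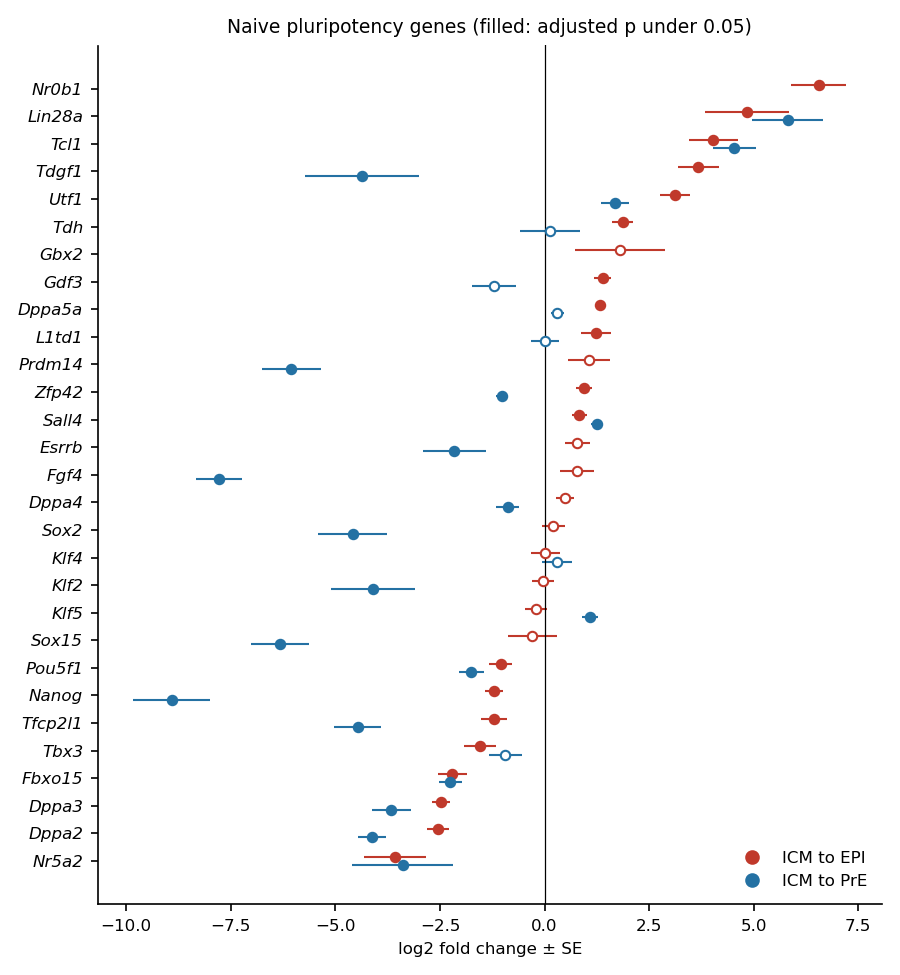
Log2 fold change ± SE of the naive pluripotency genes described here from E3.5 ICM to E4.5 EPI (red) and to E4.5 PrE (blue), ordered by the change to EPI; filled points are called at adjusted p under 0.05. The changes to EPI run from -3.57 for Nr5a2 to 6.55 for Nr0b1, whose value depends on the prior count because ICM had 0 counts, and most of the changes to PrE lie below those to EPI.

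Of 18 genes of the formative and early post-implantation epiblast, 7 reached the filter. Of these, 6 (85.7%) rose and none fell, beside 15.5% and 16.4% of all genes tested. The other 11 were too low to be tested. Genes near 0 in ICM could pass the filter only through EPI, so the 6 that rose say nothing about the 11. Otx2, a homeodomain factor that directs the exit from naive pluripotency, was between 2.17 and 33.3 CPM in ICM and between 28.8 and 99.8 CPM in EPI (2.24, SE 0.58, adjusted p = 0.00796), with a slight overlap through ICM embryo 14. It was at most 0.621 CPM in PrE. Tcf15 rose from 2.44 ± 1.39 to 42.1 ± 33.7 CPM (4.05), Tead2 from 3.24 ± 1.71 to 21.2 ± 12.9 CPM (2.67) and Enpp3 from 3.58 ± 5.95 to 42.8 ± 12.6 CPM (3.55). The rise was not particular to EPI. Of the 6 genes that rose, 1 was epiblast-specific, 2 were shared, 1 was higher in both lineages with more in PrE, and 2 were unresolved. The list summed to 100.4 to 172.1 CPM in ICM, 288 to 970.4 CPM in EPI and 729.8 to 1457 CPM in PrE. Most of the PrE sum was that of Dnmt3a and Dnmt3b, whose PrE levels are given with the DNA methylation genes below. The sum therefore does not show that the other members were higher in PrE than in EPI. Later markers were near the floor. Fgf5 had 0 counts in ICM and was between 0 and 10.2 CPM in EPI, in 4 of 37 cells. Pou3f1 was at 0.264 CPM in EPI. Lef1, an effector of Wnt signalling, did not reach the filter, with EPI sums of 0 to 55.6 CPM, but it had a count in 22 of 37 EPI cells and 0 counts in ICM and PrE. Fgf5, Pou3f1 and Lef1 are named after their values were seen.

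Of 14 DNA methylation genes, all tested, 9 (64.3%) rose and 1 (7.14%) fell, beside 15.5% and 16.4% of all genes tested, with a median log2 fold change of 1.51. Dnmt3l, a cofactor of the de novo methyltransferases, was between 1.64 and 21.4 CPM in ICM and between 236 and 551 CPM in EPI (5.25, SE 0.53, adjusted p = 4.24e-06). Dnmt3b, a de novo enzyme, was between 34.7 and 87.3 CPM in ICM and between 119 and 548 CPM in EPI (2.24, adjusted p = 9.56e-05), and its partner Dnmt3a rose from 13 ± 5.65 to 66.8 ± 49 CPM (2.37). All of these also rose in PrE, where Dnmt3a was at 291 ± 93.2 CPM and Dnmt3b at 608 ± 289 CPM. The maintenance enzyme Dnmt1 rose from 22 ± 7.31 to 63.7 ± 22.9 CPM (1.56). Mbd3, a subunit of the NuRD complex, rose from 23.1 ± 5.25 to 135 ± 35.9 CPM (2.57) and Trim28, a corepressor of zinc finger proteins, from 319.6 ± 153 to 857 ± 110.2 CPM (1.46). The member that fell was Tet2, an enzyme that oxidises methylcytosine, with 127 to 286 CPM in ICM and 8.39 to 110 CPM in EPI (-2.01, SE 0.54, adjusted p = 0.0106). It was named after its values were seen.

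Of 20 genes of the Nodal pathway, 15 were tested, 6 (40%) rose and 1 (6.67%) fell, beside 15.5% and 16.4% of all genes tested. Genes at or near 0 in ICM, such as Nodal and Lefty2, could pass the filter only through EPI. Tdgf1 and Lefty2 are also epiblast markers of this comparison. The share that rose is therefore not read as a rise of the whole pathway. The sum of the list went from 345 to 707 CPM in ICM to 1963 to 3355 CPM in EPI, most of it Tdgf1, and without Tdgf1 from 265 to 371 CPM to 576 to 1067 CPM. The ligand Nodal had 0 counts in all ICM cells and was between 3.75 and 63.6 CPM in EPI with a median of 29.7 CPM, at least 844-fold higher. It was present in 19 of 37 EPI cells and in 8 of 29 PrE cells, and the difference between EPI and PrE was not called (adjusted p = 0.728). Besides Nodal, its co-receptor Tdgf1, the ligand Gdf3 and the inhibitors Lefty1 and Lefty2, the DNA-binding partner Foxh1 rose, from 20.1 ± 7.7 to 88.5 ± 30.9 CPM (2.17). Of the tested members, Smad2, a signal transducer, was the one that fell, from 59.5 ± 5.07 to 22.5 ± 9.27 CPM (-1.36), while it was at 156 ± 63.3 CPM in PrE. It is named after its values were seen.

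In the FGF and ERK list, 5 of 20 tested genes (25%) rose and 5 (25%) fell, not far from the 15.5% and 16.4% of all genes tested. The receptor Fgfr1 fell from 108 ± 31.9 to 31.2 ± 13.3 CPM (-1.76), and Fgfr2, the receptor that marks PrE precursors, was between 16.9 and 87.8 CPM in ICM, between 0 and 10.7 CPM in EPI (-4.32, SE 1.34, adjusted p = 0.0223) and between 24.2 and 53.1 CPM in PrE. The feedback inhibitor Spry2 was between 197 and 365 CPM in ICM and between 17.7 and 64.1 CPM in EPI (-2.61, SE 0.26, adjusted p = 3.73e-06). Transcription factors of the ETS family that respond to FGF rose. Etv5 was between 27.3 and 158 CPM in ICM, between 259 and 332 CPM in EPI (1.93, SE 0.36, adjusted p = 0.000692) and between 1.83 and 50.2 CPM in PrE, and Etv4 went from 0 counts to 6.38 to 20.7 CPM, at least 529-fold higher. Egr1, an immediate early gene, rose from 16 ± 12.3 to 80.4 ± 17.2 CPM (2.35).

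In the LIF and STAT3 list, 14 genes were tested, 1 (7.14%) rose and 2 (14.3%) fell, beside 15.5% and 16.4% of all genes. Lifr, the LIF receptor, was between 0 and 27.4 CPM in ICM, between 67.4 and 139.8 CPM in EPI (3.31, SE 0.96, adjusted p = 0.0155) and between 94.7 and 278 CPM in PrE. Jak1, its kinase, fell from 63.8 ± 15 to 14 ± 5.94 CPM (-2.14). The other that fell was Tfcp2l1. Stat3 was at 103 ± 19.1 and 52.9 ± 36.8 CPM (-0.93, adjusted p = 0.102), Socs3, a feedback inhibitor, at 57.6 ± 26.4 and 12.1 ± 16.2 CPM (-2.20, adjusted p = 0.0622), and Il6st, the shared receptor gp130, at 16.1 ± 7.97 and 17.7 ± 13.8 CPM (0.17, adjusted p = 0.87). These differences did not pass the test. In the Wnt list, 3 of 14 tested genes (21.4%) rose and 3 fell, near the 15.5% and 16.4% of all genes tested. Tcf7l1, a repressor of Wnt targets, was switched on, from at most 0.704 CPM to 8.79 to 36.3 CPM (6.04, SE 0.95, adjusted p = 0.000191), Gsk3b fell from 220.2 ± 36.4 to 63.4 ± 15.9 CPM (-1.76), and Wnt7b fell from 8.76 ± 5.7 CPM to 0 counts.

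Glycolysis genes rose nearly throughout. All 22 genes were tested, 19 rose and none fell, with a median log2 fold change of 3.19, where 15.5% of all genes tested rose. To PrE, 19 were tested and 15 rose, with a median of 1.85. The list summed to between 1362 and 2406 CPM in ICM, between 6829 and 13510 CPM in EPI and between 9256 and 13970 CPM in PrE. Glycolysis turns glucose into pyruvate, which lactate dehydrogenase reduces to lactate.

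At the entry and control steps, the glucose transporter Slc2a1 rose from 94.6 ± 42.3 to 317 ± 88.7 CPM (1.78) and hexokinase Hk2 from 22.2 ± 8.98 to 77.1 ± 27.4 CPM (1.82). Of the phosphofructokinases, Pfkl was between 6.78 and 16 CPM in ICM, between 175 and 291 CPM in EPI and between 586 and 874 CPM in PrE (to EPI 4.46, SE 0.21, adjusted p = 2.64e-09). Pfkp, another of these enzymes, was between 1.11 and 14.8 CPM in ICM, between 95.5 and 709.6 CPM in EPI and between 6.6 and 54 CPM in PrE (to EPI 6.21, SE 0.59, adjusted p = 2.39e-06, and to PrE 1.44, adjusted p = 0.107). It was the 1 epiblast-specific member of the list. Pfkp shares 748 exon bases with Pitrm1 on the opposite strand, which was at 57.7 CPM in ICM, 113 in EPI and 160 in PrE.

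The lower part of the pathway rose in both lineages. Enolase Eno1 was between 17 and 76.3 CPM in ICM, between 582 and 3082 CPM in EPI and between 1580 and 2458 CPM in PrE (to EPI 5.77, SE 0.41, adjusted p = 1.77e-07). It has a near-copy, Eno1b, so the division of its reads is uncertain. Pyruvate kinase Pkm was between 237 and 556 CPM in ICM and between 2290 and 3526 CPM in EPI (2.93, SE 0.20, adjusted p = 1.41e-07), and phosphoglycerate kinase Pgk1 between 11.7 and 22 CPM and between 93.6 and 281 CPM (3.44). Lactate dehydrogenase Ldha was between 1.95 and 22 CPM in ICM, between 319 and 1871 CPM in EPI with a median of 976 CPM (7.08, SE 0.58, adjusted p = 6.66e-07), and between 705 and 2558 CPM in PrE. It had a count in 23 of 58 ICM cells and 37 of 37 EPI cells. In Eno1, Ldha and Pfkp the lowest EPI sum was that of HET embryo 1, of 3 cells. The lactate exporter Slc16a3 rose from 0.539 ± 0.434 to 50.9 ± 22.8 CPM (6.17). Hk1 and Slc16a1 did not pass the test, at 10.9 ± 4.97 and 3.53 ± 3.39 CPM and at 160.3 ± 40.3 and 109 ± 32.5 CPM in ICM and EPI. Slc2a1, Slc2a3, Pfkp, Slc16a3, Hk1 and Slc16a1 were named after their values were seen.

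**Figure D5:**
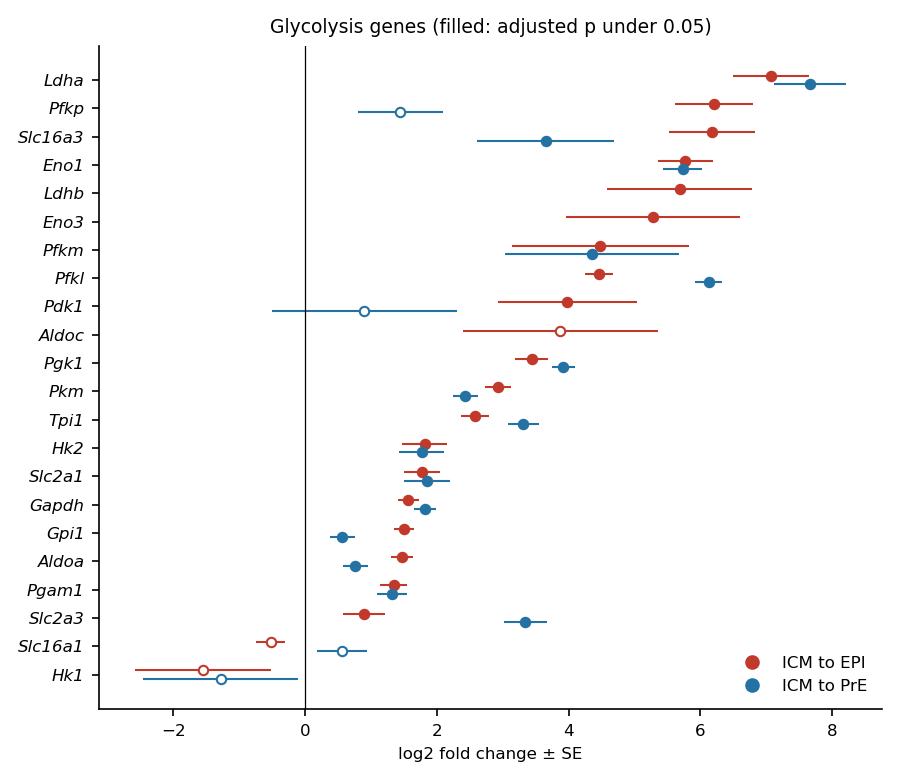
Log2 fold change ± SE of the 22 glycolysis genes from E3.5 ICM to E4.5 EPI (red) and to E4.5 PrE (blue), ordered by the change to EPI; filled points are called at adjusted p under 0.05. Of the red points, 19 are filled and lie above 0, from 0.89 for Slc2a3 to 7.08 for Ldha, and Pfkp stands out by its gap to the PrE point.

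Because the list moved together, the 250 bases before the RefSeq start of 4 of its genes are shown, read 5′ to 3′ on the coding strand from RefSeq GRCm38.p6, with every match of ACGTG on either strand in capitals. These letters are the core of the hypoxia response element and a part of CACGTG, 1 form of the E-box. The palindrome CACGTG counts on both strands. They were looked for after the list had been seen to move.
Ldha (chr7:46845554-46845803, plus strand): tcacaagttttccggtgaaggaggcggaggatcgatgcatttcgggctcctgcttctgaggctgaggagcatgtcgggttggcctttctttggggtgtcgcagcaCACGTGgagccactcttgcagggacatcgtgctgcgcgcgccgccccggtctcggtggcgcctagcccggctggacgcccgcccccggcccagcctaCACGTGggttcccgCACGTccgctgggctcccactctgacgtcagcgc
Pgk1 (chrX:106186850-106187099, plus strand): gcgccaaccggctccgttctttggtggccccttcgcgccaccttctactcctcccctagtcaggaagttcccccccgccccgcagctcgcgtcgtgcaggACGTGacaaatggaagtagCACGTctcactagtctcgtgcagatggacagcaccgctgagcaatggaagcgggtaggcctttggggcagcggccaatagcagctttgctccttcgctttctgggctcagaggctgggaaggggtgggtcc
Eno1 (chr4:150236458-150236707, plus strand): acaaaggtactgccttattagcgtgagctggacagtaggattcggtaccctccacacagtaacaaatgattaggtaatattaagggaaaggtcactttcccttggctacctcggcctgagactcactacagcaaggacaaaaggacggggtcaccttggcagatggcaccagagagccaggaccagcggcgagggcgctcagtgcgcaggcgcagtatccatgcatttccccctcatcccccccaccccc
Pfkp (chr13:6648772-6649021, minus strand): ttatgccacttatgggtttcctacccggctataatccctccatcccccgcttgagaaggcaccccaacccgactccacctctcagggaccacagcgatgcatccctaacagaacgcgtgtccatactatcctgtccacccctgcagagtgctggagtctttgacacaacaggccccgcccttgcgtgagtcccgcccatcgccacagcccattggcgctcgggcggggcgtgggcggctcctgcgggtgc
Ldha held 5 matches in this window, Pgk1 held 2, and Eno1 and Pfkp held 0. For Ldha the RefSeq start lies 4329 bases from the outermost GENCODE start of the gene, so its window belongs to 1 of several starts. Of the 21 glycolysis genes with a promoter in the table, 8 (38.1%) held ACGTG, beside 1904 of 8333 (22.85%) of all tested genes with one. A match is only a match of letters and not a site of binding.

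Of 23 listed genes of cleavage-stage families, 10 were tested, of which 9 (90%) fell and none rose, beside 16.4% and 15.5% of all genes tested. Those 9 were high in ICM and passed the filter through it, so their fall says nothing about the 13 that were not tested. The list summed to 3304 to 7667 CPM in ICM and 18 to 83.5 CPM in EPI. Trim43a was between 636 and 1186 CPM in ICM and between 0 and 35.5 CPM in EPI (-6.70, adjusted p = 0.000801), and it was named after its values were seen. Pramel6 and Pramel7 fell from 450.4 ± 218 to 1.24 ± 2.32 CPM (-8.57) and from 424 ± 106 to 3.86 ± 5.72 CPM (-6.80). Spic, an ETS factor, fell from 544 ± 194 to 22 ± 15.4 CPM (-4.58) and had 0 counts in PrE. The Trim43 and Pramel genes have near-identical copies, so the values of single copies are uncertain. The Zscan4 and Usp17l genes of the list had 0 counts in ICM and EPI. They too belong to families of similar copies. Only uniquely mapped pairs were counted, so 0 counts do not show that these genes were silent. The list also holds genes outside the Trim43, Pramel, Zscan4 and Usp17l families, such as Timd2, Alppl2 and Spic. Of these, Timd2 and Alppl2 are also among the leading losses above.

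Markers of other cells were looked at in the EPI sums. Of 24 PrE markers 18 were tested, 4 (22.2%) rose and 7 (38.9%) fell from ICM to EPI, beside 15.5% and 16.4% of all genes, with a median of -1.41, while to PrE 20 of 24 rose with a median of 5.44. The list summed to 564 to 784 CPM in ICM, 2406 to 2792 CPM in EPI and 10550 to 20520 CPM in PrE, and Apoe and Sparc held most of the EPI sum. Without them the sum was 452 to 623 CPM in ICM and 170 to 360 CPM in EPI. Apoe, a lipid transport protein, rose from 105 ± 51.6 to 1938 ± 182 CPM (4.24), beside 1674 ± 667 CPM in PrE, and Sparc, a matrix protein, from 11.2 ± 8.21 to 430.2 ± 102 CPM (5.26), beside 2929 ± 611 CPM in PrE. Serpinh1, a collagen chaperone, went from 1 count in ICM to 9.93 to 42.8 CPM in EPI and 335 to 693 CPM in PrE. Defining PrE factors were low in EPI, with Gata4 at 0.214 CPM, Foxa2 at 0.233 CPM, Sox7 at 2.02 CPM and Sox17 at 4.63 CPM (Foxa2 named after its values were seen), against 209, 40.4, 178 and 244 CPM in PrE. Pdgfra and Cited1 fell in EPI, from 21.2 ± 22.3 to 0.659 ± 1.57 CPM (-4.60) and from 44.4 ± 16.2 to 4.53 ± 4.54 CPM (-3.21). The part of PrE RNA in the EPI libraries was not tested.

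Of 20 TE markers, 14 were tested, 2 (14.3%) rose and 4 (28.6%) fell, beside 15.5% and 16.4% of all genes, and their sum was 458 to 1539 CPM in ICM and 495 to 710 CPM in EPI. Krt8, a keratin, was between 73 and 453 CPM in ICM and between 0 and 42.1 CPM in EPI (-4.19, adjusted p = 0.00701). Tfap2c fell from 108 ± 33.7 to 14.7 ± 12.1 CPM (-2.83) and Hand1 from 13.5 ± 11.4 to 0.0685 ± 0.168 CPM (-5.76), while Lgals3 rose from 4.31 ± 4.4 to 70.7 ± 27.9 CPM (4.02). Cdx2, the defining TE factor, was at 2.72 CPM in ICM and 0 counts in EPI, and Gata3 at 10.6 and 1.93 CPM. The part of remaining TE cells in the ICM values was not tested. Of 18 oocyte genes 13 were too low to be tested. Of the other 5, 3 (60%) rose and 1 (20%) fell, beside 15.5% and 16.4% of all genes tested, and 5 genes are too few to judge the list. Ooep rose from 17.1 ± 10.4 to 126 ± 34.2 CPM (2.91) and Khdc3 fell from 849 ± 159 to 591 ± 133 CPM (-0.49). The oocyte genes Zp1, Zar1 and Mos had 0 counts in both groups.

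Of the epithelial and matrix genes, 6 of 20 tested (30%) rose and 5 (25%) fell, beside 15.5% and 16.4% of all genes tested. Fn1, fibronectin, was between 30.4 and 91.1 CPM in ICM and between 285 and 587 CPM in EPI (3.07, SE 0.25, adjusted p = 6.99e-07) and was epiblast-specific, with 17.1 to 81.9 CPM in PrE. The adhesion molecules Epcam and Cdh1 fell, from 978 ± 89.7 to 371 ± 115 CPM (-1.37) and from 201 ± 43 to 96.2 ± 31.2 CPM (-1.03), and so did the tight junction gene Cldn7, from 269 ± 54.2 to 30 ± 19.3 CPM (-3.11), and the integrin Itgb1, from 231 ± 80.6 to 77.2 ± 28 CPM (-1.55).

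Of the genes of p53 and apoptosis, 4 of 16 tested (25%) rose and 2 (12.5%) fell, near the 15.5% and 16.4% of all genes tested. Trp53 itself rose from 168 ± 42.4 to 437 ± 138 CPM (1.41) and the pro-apoptotic Bax from 105 ± 11.6 to 223 ± 70.4 CPM (1.12), both epiblast-specific, with 107 and 75.1 CPM in PrE. The anti-apoptotic Bcl2l1 rose from 8.37 ± 3.68 to 38.8 ± 18.8 CPM (2.23). Of 14 tested genes of the response to dissociation, 4 (28.6%) rose and 1 (7.14%) fell, beside 15.5% and 16.4% of all genes, with Dusp1 going from 21.2 ± 10.9 to 202 ± 119.9 CPM (3.27) and Ier2 from 56.5 ± 9.75 to 210.2 ± 50.3 CPM (1.93), while Fos (48.1 ± 50.1 and 7.74 ± 8.99 CPM) and Jun (11.2 ± 6.01 and 8.44 ± 7.54 CPM) did not pass the test. Fos and Jun are named after their values were seen. The part of handling in these changes was not tested.

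Of 11 tested genes encoded by mitochondrial DNA, 8 (72.7%) fell and none rose, beside 16.4% and 15.5% of all genes. The cytochrome oxidase subunit mt-Co1 was between 14728 and 23868 CPM in ICM and between 5615 and 8731 CPM in EPI (-1.32, SE 0.14, adjusted p = 7.46e-06), and mt-Nd2 fell from 1294 ± 421 to 322 ± 96.1 CPM (-1.98). The mitochondrial share of all counts was 3.97% ± 0.648 in ICM, 2.27% ± 0.140 in EPI and 1.99% in PrE, and ICM and EPI differed with an exact two-sided permutation p of 0.001166. With all aligned read pairs as library size the calls of mt-Nd3, mt-Nd5, mt-Nd6 and mt-Cytb were lost.

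In the list of X inactivation, 4 genes were tested, 1 (25%) rose and 2 (50%) fell, beside 15.5% and 16.4% of all genes tested. Rlim, the X-linked activator of Xist, fell from 804 ± 276 to 243 ± 76.6 CPM (-1.70) and was at 467 ± 123 CPM in PrE. Xist, the RNA that coats the inactive X chromosome, was called lower in EPI (-5.69, SE 1.75, adjusted p = 0.0215), but its level followed single embryos. It was at 560.1 and 490 CPM in ICM embryos 13 and 18, whose Y-linked genes were at 2.58 and 0 CPM, and between 1.38 and 8.74 CPM in the other 5 ICM embryos, whose Y-linked genes were at 213.9 to 343.5 CPM. Among EPI sums embryo 5 was low in Y-linked genes, at 2.73 CPM, and it held 0.508 CPM of Xist in EPI and 69.9 CPM in PrE, while the other EPI embryos held 111.3 to 164.1 CPM of Y-linked genes. The Xist call was lost among WT embryos alone (adjusted p = 0.127), with genotype as a covariate (adjusted p = 0.324) and in limma-trend (adjusted p = 0.0557).

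Whether the change from ICM to EPI differed between WT and HET embryos was tested with an interaction term. It was called for 8 of 11142 genes (0.0718%), Wars2, Acsl5, Rpsa-ps10, Eno1b, Tor4a, Rps26-ps1, Gm4735 and Tmem35b, while 878 genes had an unadjusted p under 0.05 and DESeq2 called 428 of 14403. Of the 8 genes, Rpsa-ps10, Rps26-ps1 and Eno1b are by name copies of other genes, whose reads cannot be assigned with certainty. With 2 embryos in the smallest groups of the design, a p that misses the threshold does not show that WT and HET embryos changed alike. Among WT embryos alone, 5 against 2, the calls of Nrg1, Plod2, Lefty1, Pou5f1, Sall4, Otx2, Dnmt3a, Enpp3, Fgfr2, Etv5, Egr1, Lifr, Dnmt1, Trim28, Pdgfra, Krt8, Khdc3, Xist, Slc2a3, Itgb1, mt-Nd3, mt-Nd5, mt-Nd6 and mt-Cytb were lost. With genotype as a covariate those of Khdc3, Xist, Slc2a3, mt-Nd3 and mt-Cytb were lost. With all aligned read pairs as library size the calls of Tfcp2l1, Pou5f1, Khdc3, mt-Nd3, mt-Nd5, mt-Nd6 and mt-Cytb were lost, and in the fit of the 3 groups together those of Nanog, Tfcp2l1, Fgfr1, Khdc3 and mt-Cytb. With EPI and PrE cells added together the calls of Eva1a, Gata6, Zfp42, Otx2, Enpp3, Fgfr2 and Wnt7b were lost. Leaving out 1 of the 13 embryos at a time ended the call of Slc2a3 in 9 cases, of mt-Nd5 in 8, of Enpp3 and mt-Nd3 in 3 each, and of mt-Nd6 in 1.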

How the data were processed

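Single cells of mouse blastocysts were profiled by Smart-seq2, and the authors aligned read pairs with STAR to mm10 and counted uniquely mapped pairs per gene of Ensembl 87 with HTSeq. The deposited values are raw counts, 1 file per cell with 49671 genes. The version of HTSeq is not given in the sources used here. Groups came from the sample titles and embryo and plate numbers from the study's sample sheet. Rows that name no gene, such as multiply mapped pairs, stayed out of sums and library sizes. The library type does not keep the strand, and 18 of 69 leading genes and markers and 24 of 112 switched genes share exon bases with another annotated gene.

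Counts were added up per embryo and lineage, and each pair of groups was fitted on its own with edgeR 4.0.16 (TMM, filterByExpr, quasi-likelihood test) in R 4.3.3, with Benjamini-Hochberg adjustment over all genes tested. Printed CPM use TMM over all 19 sums. Multiply mapped copies are lost in counting, so values of near-identical genes are uncertain. Embryos of 1 group may share a litter, which is not given, so p-values measure the spread between these embryos. The script was tested on simulated data. Intervals and floors cover counting error only.

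The members and the 17 gene lists were chosen with earlier results of these data known. The genes named are the 5 markers, the 8 largest fold changes per direction among epiblast-specific and among shared genes (groups not overlapping, 20 CPM or more, no Gm or Rik symbols), tested naive and formative genes, and of each other list up to 6 called members by adjusted p and genes the study names in embryo cells. Genes outside this rule, which include list genes at or near 0 and those whose calls depend on a setting, were named after their values were seen. EPI and PrE sums came from the same 6 embryos and are thus paired by origin. The correlations of their deviations from the group means were 0.00926 to 0.081, and 5 of 6 embryos correlated best with their own partner. Alternatives were DESeq2 1.42.0, limma 3.58.1 on cells weighted equally, other filters and scalings, genotype, the lineage assignment and leaving out each embryo. Values of some list members are not reported here, though the counts over their lists include them.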

Additional observations from a re-analysis of the deposited data

Results flagged for a closer look

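The highest or lowest embryo of a group was compared with the others by Dixon's criterion for 130 groups of values over 69 genes, and 17 stood apart. Chance gives about 1 in 20 groups, but that rate does not hold for groups near 0, where 1 count above zeros is enough, so the number is not read as an excess. Among genes that rose in EPI, Lefty2 was lowest in EPI embryo 5 at 67.9 CPM (others 253 to 426), and Trh was lowest in EPI embryo 1 at 205 CPM (others from 748). In ICM embryo 14, Igfbp2 was at 2.32 CPM (others at most 0.0601), Ifitm1 at 0.0702 CPM and Gjc1 at 0.632 CPM (others 0 for both). Car2 was at 1.8 CPM in ICM embryo 15 (others at most 0.156) and Tceal9 at 5.23 CPM in ICM embryo 18 (others at most 0.704).

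Among genes that fell, Msl3 was highest in ICM embryo 18 at 118 CPM (others 24.9 to 44.1). In EPI embryo 5, Nrg1 was at 4 CPM (others at most 0.75) and Eva1a at 0.0635 CPM (others 0). In EPI embryo 4, Amot was at 6.66 CPM (others at most 0.443) and BC053393 at 0.247 CPM (others at most 0.0635). Alppl2 was at 3.5 CPM in EPI embryo 7, Pramel4 at 0.137 CPM in EPI embryo 2 and Gulo at 0.0739 CPM in EPI embryo 6, with 0 in the others. Of the naive genes, Tbx3 was lowest in ICM embryo 18 at 104 CPM (others 147 to 192) and L1td1 lowest in ICM embryo 16 at 16.9 CPM (others 39.8 to 66.6). The causes were not tested.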

How the results depend on the processing

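The number of genes called from ICM to EPI was 3557, and 3026 to 3972 when each embryo was left out in turn, 5400 with DESeq2 and 5793 in limma-trend on cells weighted equally. Genes switched on numbered 54 to 70 and genes switched off 54 to 65 with 1 embryo left out. They were 90 and 110 among WT embryos alone, 34 genes were switched on with a limit of 0.5 CPM in the lower group, and 34 were switched off with all aligned read pairs as library size. With 1 embryo left out, ICM to PrE gave 2894 to 3905 calls, EPI against PrE 649 to 916, epiblast-specific genes 173 to 253 higher and 128 to 170 lower, and shared genes 532 to 686 higher and 830 to 1149 lower. DESeq2 gave 5332 calls from ICM to PrE, 2178 for EPI against PrE, 527 higher and 383 lower epiblast-specific genes, 1585 shared lower genes and 428 for stage by genotype. With the embryo as replicate block, EPI against PrE gave 840 calls, epiblast-specific genes 204 higher and 132 lower, and shared genes 642 higher and 1018 lower. With EPI and PrE cells together, the log2 fold change from ICM turned for Rab3il1 (0.98), Nrg1 (1.65), Amot (0.52), Plod2 (0.38), Smad2 (0.51), Pdgfra (1.91), Lamb1 (5.56), Col4a1 (3.71), Col4a2 (3.10), Dab2 (4.21), Cubn (5.67), Lrp2 (4.53), Cited1 (0.81), Itga5 (0.58) and Jun (1.40), as PrE cells enter that fit. Fgfr4 turned to -3.33 among WT embryos alone and Tead4 to -1.16 in limma-trend. For the other changes the cause was not tested. Of 160 listed or leading genes called, 114 stayed called among WT embryos alone, 159 with DESeq2, 154 in limma-trend and 146 with all aligned read pairs as library size, and none of the 160 turned under these settings. Depth differed between embryos, and the smallest EPI sum was of 3 cells. Left out after seeing the data, Dppa5a turned the difference of the median list sums (EPI minus ICM) of the naive genes from 2437 to -1216 CPM, and Apoe and Sparc that of the PrE markers from 2038 to -266.6 CPM.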

Other observations

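HET EPI embryo 1, which gave 3 EPI cells, was the EPI sum nearest to the ICM mean in 1069 (30.1%) of the 3557 called genes and the farthest in 1047 (29.4%). The other 5 EPI embryos, of 5 to 8 cells, were nearest in 13.5% to 14.9% of the genes and farthest in 11.9% to 19%. Without embryo 1, 3972 genes were called.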
